A study of Arabidopsis thaliana with 12 samples.

Results

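Transcripts of 6 Arabidopsis genes for small heat shock proteins that are sent into an organelle were followed in flowers of an XBAT31 mutant and of the wild type, with and without heat. The 6 genes were taken by identifier from the 27715 genes of the deposited table. HSP21 (AT4G27670) acts in chloroplasts, HSP22.0 (AT4G10250) in the endoplasmic reticulum, HSP23.5 (AT5G51440), HSP23.6 (AT4G25200) and HSP26.5 (AT1G52560) in mitochondria, and HSP15.7 (AT5G37670) in peroxisomes. All 6 passed the filter on low counts. All 6 were higher at 38 °C than at 22 °C in both genotypes, and at 38 °C all 6 had lower mean levels in the mutant, a difference that passed the test for HSP23.5, HSP23.6 and HSP15.7.

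Small heat shock proteins bind proteins that lose their fold in heat and keep them soluble until ATP-driven chaperones such as HSP70 and the ClpB disaggregases refold them. Plants make separate classes for the cytosol and for organelles, the organelle classes carrying signals that direct them to their compartment. Their genes are nearly silent in unstressed vegetative tissue and are switched on by heat shock factors, which bind heat shock elements, alternating repeats of the units GAA and TTC, near the start of the gene.

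The study had 4 groups of 3 libraries each: XBAT31 mutant flowers at 38 °C, wild-type (WT) flowers at 38 °C, mutant flowers at 22 °C and WT flowers at 22 °C. Heat lasted 3 h, each replicate held 9 flowers, and flowers spanned stages 1 to 12. The sources used here give neither the kind of XBAT31 mutation nor the ecotype nor the number of plants behind the replicates of a group, so that p-values are based on a spread among samples that may be technical. Polyadenylated RNA was sequenced, and for each gene the authors deposited an estimated count together with an FPKM value, which corrects for the length of the transcript and the depth of the library.

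XBAT31 itself (AT2G28840), which codes for an ankyrin-repeat RING protein, averaged 50.4 ± 3.45 FPKM in mutant flowers and 109 ± 1.46 FPKM in WT flowers at 38 °C, and 51.8 ± 5.64 FPKM in mutant flowers and 96.2 ± 0.782 FPKM in WT flowers at 22 °C (SD, n = 3 each). It was lower in the mutant at both temperatures (log2 fold change -1.15 at 38 °C, adjusted p = 6.98e-05, and -0.93 at 22 °C, adjusted p = 8.61e-04, edgeR). The mutant libraries still held XBAT31 reads. Totals ran from 44983198 to 63088433 counts per library. The 10 floral identity genes, such as AP1, AP3 and AG, were detected in every library and summed to 652 to 685 FPKM in the mutant and 657 to 689 FPKM in WT at 38 °C, and to 693 to 751 FPKM in the mutant and 685 to 720.2 FPKM in WT at 22 °C. WT replicate 2 at 38 °C and mutant replicate 2 at 22 °C lay apart from their groups on the second principal component. Heated mutant libraries were all spread on it, at -45.3, 28.3 and -6.56 for replicates 1, 2 and 3. Mutant replicate 1 at 38 °C, the lowest of them, is counted below with the other 2 as the 3 libraries that lay apart. In flowers, fewer cells of a type and less RNA per cell cannot be told apart.

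The 6 genes lie apart in the genome and no other gene of the deposited table overlaps any of them. In TAIR10 coordinates of the deposited table HSP21 spans chr4:13818870-13819971 on the minus strand, HSP22.0 chr4:6370343-6371291 on the plus strand, HSP23.5 chr5:20891163-20892211 on the plus strand, HSP23.6 chr4:12917017-12918053 on the plus strand, HSP26.5 chr1:19574760-19575866 on the minus strand and HSP15.7 chr5:14968991-14969509 on the plus strand. HSP22.0 and HSP15.7 have 1 exon in the RefSeq annotation, and the other 4 genes have 2. The mitochondrial pair HSP23.5 and HSP23.6 had the most alike coding sequences, with 71.1% of alignment positions identical, gaps included. The other 14 pairs had 36.8% to 52.3% by this measure, which falls where lengths differ. As a share of the shorter sequence, identical bases made up 73.5% in this pair and 52.2% to 65.9% in the other 14. The longest exact stretch that a member's mRNA shared with any other protein-coding mRNA was 22 bases, in HSP21, and HSP23.6 shared none of 20 bases or more.

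Heat shock elements were searched in RefSeq genome sequence (TAIR10.1) as the patterns GAANNTTC and TTCNNGAA, which hold 2 units, and GAANNTTCNNGAA and TTCNNGAANNTTC, which hold 3. The patterns of 2 units read the same on both strands, those of 3 units were searched on both, and a match of 3 units contains overlapping matches of 2. Each of the 6 genes had at least 1 match of 2 units in the 500 bases before its start codon, where 34.5% of 22207 tested protein-coding genes had one and 39.8% of 3054 tested genes that rose after heat in WT. The annotated 5′ UTR and annotated start are those of RefSeq. The match nearest to the start codon outside the annotated 5′ UTR is shown for HSP21, HSP23.5, HSP26.5 and HSP15.7. For HSP22.0 and HSP23.6 the match within the annotated 5′ UTR is shown. HSP23.6 starts at 12916926 in RefSeq, and its match lies upstream of the start in the deposited table, 12917017. The matches are examples of the pattern on which the counts above rest. Capitals mark the matched bases.
HSP21, chr4:13820056-13820079, minus strand: cgagtcgaGAAACTTCgtatcaaa
HSP22.0, chr4:6370379-6370407, plus strand: aaagatatTTCAAGAAACTTCttcattct
HSP23.5, chr5:20891061-20891084, plus strand: ccacgcagTTCTAGAAccatcctt
HSP23.6, chr4:12916931-12916954, plus strand: cttctccaGAACATTCactcactg
HSP26.5, chr1:19575899-19575922, minus strand: aactcttaGAAACTTCtaacacct
HSP15.7, chr5:14968592-14968615, plus strand: tgttgctaTTCATGAAatcttgag

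HSP21 and HSP26.5 share the same matched bases, GAAACTTC, and the same 8 bases end the 3-unit match of HSP22.0. HSP22.0 was the member with 3 units in a row, a pattern that 3 of the 12 cytosolic and nuclear small heat shock proteins, 3.11% of tested genes that rose after heat in WT and 1.31% of tested protein-coding genes had in the same window. The printed matches of HSP21, HSP22.0, HSP23.5, HSP23.6 and HSP26.5 began 148 to 176 bases before the start codon, and that of HSP15.7 began 435 bases before it. The window held 1 further match in HSP21, GAATTTTC, which began 50 bases before the start codon within the annotated 5′ UTR, and 1 in HSP26.5, TTCAAGAA, which began 364 bases before it. In the 250 bases before the start annotated in RefSeq, 4 of the 6 genes had a match of 2 units. So had 15.9% of tested protein-coding genes and 3 of the 12 cytosolic and nuclear small heat shock proteins. Starts in the deposited table differ for HSP22.0, HSP23.6 and HSP15.7, and the count was not repeated with them. In the 500 bases before the start codon the cytosolic and nuclear proteins had matches in 10 of 12. A match describes the letters of the window and is not a measured binding site.

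The 250 bases before the annotated start are printed for the 2 of these 4 genes that share the matched bases, HSP21 and HSP26.5, to show the context of the element. Both are written 5′ to 3′ on the strand of the gene, with the match in capitals.
HSP21, chr4:13819972-13820221, minus strand: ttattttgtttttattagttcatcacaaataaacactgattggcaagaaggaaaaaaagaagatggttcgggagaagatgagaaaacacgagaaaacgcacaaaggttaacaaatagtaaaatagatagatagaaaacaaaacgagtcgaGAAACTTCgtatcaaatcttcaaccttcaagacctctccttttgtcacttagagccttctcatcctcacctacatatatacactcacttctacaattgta
HSP26.5, chr1:19575867-19576116, minus strand: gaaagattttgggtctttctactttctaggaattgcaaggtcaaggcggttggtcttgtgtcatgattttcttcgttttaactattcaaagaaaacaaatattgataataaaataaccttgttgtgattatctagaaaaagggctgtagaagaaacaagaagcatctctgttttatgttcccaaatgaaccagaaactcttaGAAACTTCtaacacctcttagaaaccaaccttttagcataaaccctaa

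**Figure D1:**
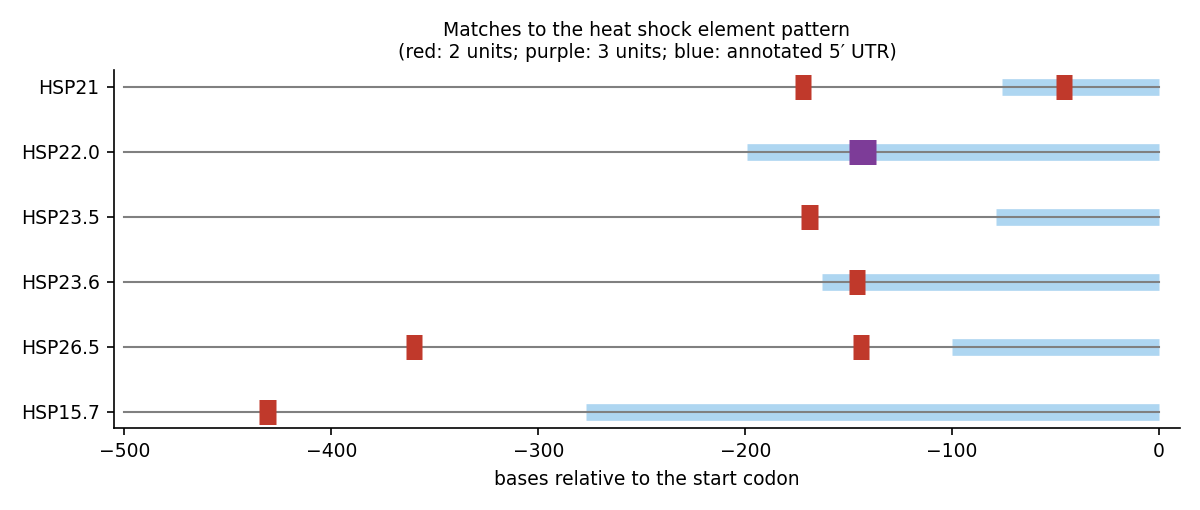
Matches to the heat shock element patterns in the 500 bases before the start codon of each gene (x axis, bases relative to the start codon). The 5′ UTR annotated in RefSeq is in blue, matches of 2 units are in red and the match of 3 units is in purple. In 5 genes a match begins 148 to 176 bases before the start codon, and in HSP15.7 it begins 435 bases before it. Further matches begin 50 bases before it in HSP21 and 364 bases before it in HSP26.5.

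At 22 °C the members were low or not detected. HSP23.5 was the highest of the 6 in all 6 libraries, with 6.96, 7.56 and 7.49 FPKM in mutant flowers and 8.12, 7.71 and 10.96 FPKM in WT flowers. HSP21 was at 0 counts in all 6 libraries, mutant and WT. HSP22.0, HSP23.6 and HSP15.7 were between 0.377 and 1.98 FPKM in the mutant and between 0.520 and 1.63 FPKM in WT. HSP22.0 was the lowest of these 3 in every mutant library, and HSP15.7 was the highest of them in every WT library, while the other neighbours in the order overlapped. HSP26.5 had 16, 0 and 3 counts in mutant flowers and 0, 8 and 0 counts in WT flowers, near the limit of detection. Together the 6 genes summed to 9.24 to 11.6 FPKM in the mutant and 10.6 to 15.0 FPKM in WT.

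The order of the members was different at 38 °C. HSP22.0 was highest in all 6 libraries, followed by HSP23.6 and then HSP23.5 in each of them. HSP22.0 reached rank 233 of 27715 genes by mean FPKM in the mutant and rank 111 in WT, and HSP23.6 reached rank 1451 in the mutant and rank 422 in WT. The 3 lowest members, HSP15.7, HSP26.5 and HSP21, stood in that order in all 3 WT libraries, but their order varied between the mutant libraries, where their levels overlapped. Summed FPKM of the 6 genes was 639, 540.2 and 458 in mutant flowers and 1127, 894 and 872 in WT flowers at 38 °C, with no overlap between genotypes.

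**Figure D2:**
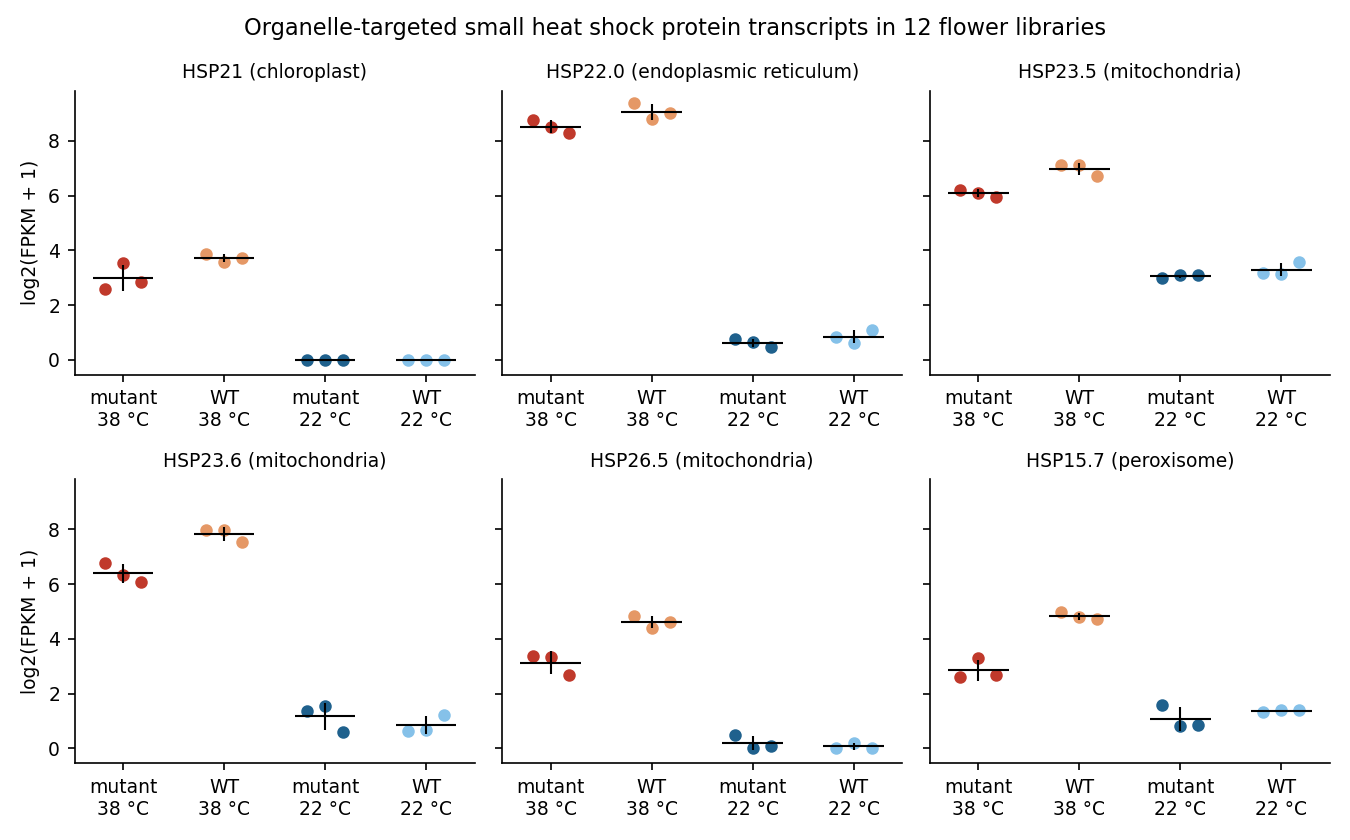
Level of each gene (y axis, log2(FPKM + 1)) in the 12 libraries, by group. Points are libraries, horizontal bars are means and vertical bars are 1 SD (n = 3). Each gene is higher in both 38 °C groups than in both 22 °C groups, and at 38 °C every mutant library lies below every WT library.

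The question of the temperature comparison was how 3 h at 38 °C changed these transcripts in each genotype. All 6 members rose in the mutant and all 6 rose in WT. Of all 23585 genes tested, 11.3% rose in the mutant and 14.3% rose in WT. The split of all calls moved with the scaling: 2669 genes were higher and 3206 lower in the mutant and 3375 higher and 3866 lower in WT, while scaling on reference genes gave 4623 higher and 1553 lower in the mutant and 4814 higher and 2278 lower in WT. Limma on log2(FPKM + 1) gave 3938 higher and 2089 lower in the mutant and 4367 higher and 2695 lower in WT. The libraries at 38 °C and 22 °C did not overlap for any member in either genotype, as was so for 26.1% of tested genes in the mutant and 27.0% in WT in the same direction. Folds and standard errors are from edgeR's quasi-likelihood test with Benjamini-Hochberg adjustment over all genes tested. All 12 calls held under all 22 other settings and library sets tried.

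HSP21, the chloroplast protein, which associates with thylakoids and with the transcription apparatus protein PTAC5, had 5.07, 10.6 and 6.17 FPKM in mutant flowers at 38 °C, against 0 in all 3 mutant libraries at 22 °C. In WT flowers it had 13.4, 10.9 and 12.2 FPKM at 38 °C and 0 in all 3 libraries at 22 °C. The gene thus appeared in every heated library and in none of the others. With a floor of 12 counts per library in place of 0, it was at least 25.9-fold higher in the mutant and at least 47.0-fold higher in WT. These bounds were not tested. The edgeR test of any change, on the counts without the floor, gave adjusted p = 1.06e-04 in the mutant and 2.59e-05 in WT.

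HSP22.0, which is retained in the endoplasmic reticulum, had the highest fitted change in the mutant among the members with counts at 22 °C. It had 438, 364 and 314 FPKM in mutant flowers at 38 °C, against 0.682, 0.579 and 0.377 FPKM in mutant flowers at 22 °C. In WT it had 662, 446 and 523 FPKM at 38 °C and 0.801, 0.520 and 1.14 FPKM at 22 °C. The fitted change was 631-fold in the mutant (log2 fold change 9.30, SE 0.34, adjusted p = 5.82e-08) and 608-fold in WT (9.25, SE 0.33, adjusted p = 5.05e-08). Every heated library was far above every unheated one in both genotypes.

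The transcripts of the 3 mitochondrial proteins rose to different degrees. HSP23.5 had 73.5, 67.8 and 60.3 FPKM in mutant flowers and 138, 137 and 105 FPKM in WT flowers at 38 °C. From its higher starting level it changed 8.50-fold in the mutant (log2 fold change 3.09, SE 0.16, adjusted p = 1.26e-06) and 13.2-fold in WT (3.73, SE 0.17, adjusted p = 1.95e-07). Its fitted change in WT was the smallest of the members. HSP23.6 had 107, 80.2 and 66.6 FPKM in mutant flowers and 255, 253 and 183 FPKM in WT flowers at 38 °C. At 22 °C it had 1.54, 1.94 and 0.529 FPKM in mutant flowers and 0.541, 0.609 and 1.32 FPKM in WT flowers. Its change was 58.9-fold in the mutant (5.88, SE 0.42, adjusted p = 1.66e-05) and 253-fold in WT (7.98, SE 0.46, adjusted p = 1.42e-06). The pair swapped order with heat: HSP23.6 was 1.10 to 1.46 times HSP23.5 in mutant libraries at 38 °C and 1.74 to 1.84 times in WT libraries, while at 22 °C the same FPKM ratio was 0.0706 to 0.256 in the mutant and 0.0666 to 0.121 in WT.

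HSP26.5, the third mitochondrial member, had 9.47, 9.18 and 5.33 FPKM in mutant flowers and 27.9, 19.9 and 23.51 FPKM in WT flowers at 38 °C, against at most 0.399 FPKM in the mutant and at most 0.157 FPKM in WT at 22 °C. Its heated libraries were all far above its unheated ones. The log2 fold change was 5.51 in the mutant (SE 0.81, adjusted p = 8.96e-04) and 8.45 in WT (SE 0.93, adjusted p = 7.46e-05). The WT value rests on 8 counts in 1 of 3 libraries at 22 °C. Over the other settings and library sets the fitted change ran from 2.94 to 7.58 in the mutant, 7.58 being without mutant replicate 1 at 22 °C, and from 4.55 to 12.99 in WT, 12.99 being without WT replicate 2 at 22 °C.

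HSP15.7, the peroxisomal member, had 5.08, 8.85 and 5.34 FPKM in mutant flowers at 38 °C, against 1.98, 0.765 and 0.785 FPKM in mutant flowers at 22 °C. In WT flowers it had 30.4, 26.9 and 25.3 FPKM at 38 °C and 1.53, 1.63 and 1.62 FPKM at 22 °C. The groups did not overlap, although mutant replicate 1 at 22 °C was well above the other 2 unheated mutant libraries. HSP15.7 changed 5.03-fold in the mutant (log2 fold change 2.33, SE 0.36, adjusted p = 0.00122) and 15.9-fold in WT (3.99, SE 0.37, adjusted p = 2.74e-05), the smallest fitted change of the members in the mutant. Without mutant replicate 1 at 22 °C the log2 fold change in the mutant was 2.93 (adjusted p = 4.93e-04).

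**Figure D3:**
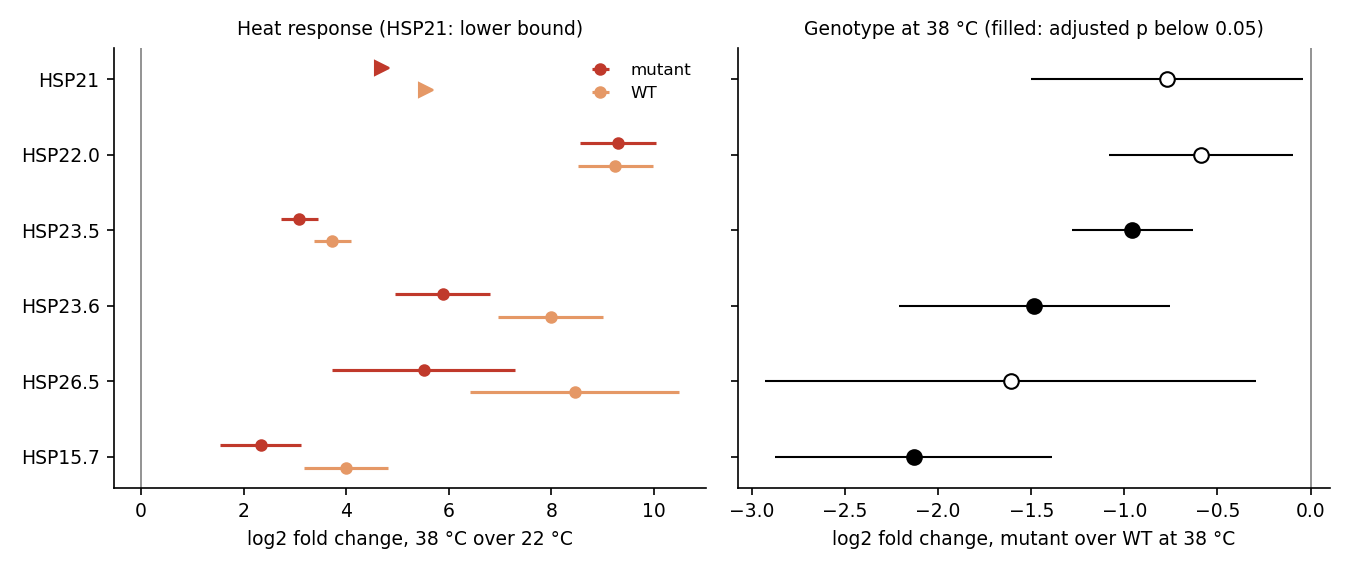
Left, log2 fold change of 38 °C over 22 °C in the mutant and in WT with 95% intervals computed from the edgeR F statistic. HSP21 is drawn as a lower bound with an arrowhead. Right, log2 fold change of mutant over WT at 38 °C with 95% intervals, filled where the adjusted p was below 0.05. All heat changes are above 0, and all 6 genotype changes at 38 °C are below 0, from -2.13 for HSP15.7 to -0.59 for HSP22.0.

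With HSP21 at its bound, the median log2 change of the 6 members was 5.10 in the mutant and 6.77 in WT, against a median of -0.00 in the mutant and -0.05 in WT over all genes tested. The 12 cytosolic and nuclear small heat shock proteins had a median of 4.09 in the mutant and 5.32 in WT, and in each genotype 10 of them rose, 1 fell and 1 did not pass. HSP18.2, a cytosolic protein, had a log2 fold change of 6.92 in the mutant and 7.01 in WT, and HSP17.6B one of 7.21 in the mutant and 7.93 in WT. HSP15.4 was the gene that fell and HSP21.7 the one that did not pass, both named after their values were seen.

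The larger chaperones and other genes of the same compartments had smaller median changes, a difference between lists that was not tested. Of 12 chloroplast chaperones and proteases, 10 rose in the mutant and 8 rose in WT, with median log2 changes of 0.49 in the mutant and 0.54 in WT. CPN60B2, a chaperonin subunit, had a change of 1.18 in the mutant and 1.21 in WT. FTSH6, a thylakoid protease named after its values were seen, was an exception at a low level. It averaged 0.180 ± 0.124 FPKM in mutant flowers at 38 °C and was at 0 in all 3 mutant libraries at 22 °C, and it averaged 0.605 ± 0.178 FPKM in WT flowers at 38 °C and 0.0229 ± 0.0397 FPKM in WT flowers at 22 °C (SD, n = 3 each). Its log2 fold change in WT, 4.55 (SE 1.26, adjusted p = 0.0227 by edgeR), was above the 3.73 of HSP23.5 and the 3.99 of HSP15.7. Of 11 mitochondrial ones, 9 rose in the mutant and 8 in WT (median changes 0.53 in the mutant and 0.78 in WT). The disaggregase CLPB4 had a change of 1.55 in WT. Of 14 endoplasmic reticulum chaperones, 9 rose in the mutant and 8 in WT (median changes 0.45 in the mutant and 0.41 in WT), BIP2, an HSP70 of that compartment, having 0.82 in the mutant and 0.79 in WT. Of 10 peroxisomal import, protease and antioxidant genes, none passed in the mutant, where the smallest adjusted p was 0.0773, for the catalase gene CAT2, and 2 rose in WT, PEX10 by 0.37 and PEX7 by 0.39 on the log2 scale. No gene of these 4 lists fell past the threshold in either genotype.

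The 17 maturing-pollen markers stand for another cell group of these flowers. They summed to 1221 to 4516 FPKM in the mutant and 2110 to 3820 FPKM in WT at 38 °C, and to 3679 to 4494 FPKM in the mutant and 3352 to 7024 FPKM in WT at 22 °C, with none at 0 in any library. None passed the edgeR test in any comparison, while 3 in the mutant and 4 in WT had an unadjusted heat p below 0.05. Their median log2 heat change was -0.80 in the mutant and -0.87 in WT. The 20 photosynthesis markers summed to 9906 to 12874 FPKM in the mutant and 9202 to 10772 FPKM in WT at 38 °C, and to 5033 to 10838 FPKM in the mutant and 8952 to 15965 FPKM in WT at 22 °C. Of these, 3 rose in each genotype. Mutant replicate 1 at 38 °C, which had the lowest pollen sum, was the highest of its group for 4 of the 6 members and the lowest for HSP21 and HSP15.7. WT replicate 2 at 38 °C, with the lowest pollen sum of its group, was the lowest for 3 members, while WT replicate 1 was the highest for all 6. Without the 3 libraries that lay apart, all 6 members rose in both genotypes. Whether the make-up of the flowers has a part in the members' values was not tested.

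The second question was whether the mutant differed from WT in heated flowers. At 38 °C the highest mutant library lay below the lowest WT library for each of the 6 members, as was so for 12.3% of genes tested. By edgeR's quasi-likelihood test with Benjamini-Hochberg adjustment, 3 of the 6 were lower in the mutant, where 5.26% of genes tested were. The unadjusted p was below 0.05 for all 6, and for 9 of the 12 cytosolic and nuclear small heat shock proteins. The share of all genes tested with such an unadjusted p is not given. The median log2 change of the members was -1.22, against -0.00 over all genes tested. Without the 3 libraries that lay apart, 3 of the 6 were lower as well. WT replicate 1 was the highest WT library for all 6 members, and without it 2 members were called.

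HSP15.7 stood furthest from WT. Its mean in heated mutant flowers was 6.42 ± 2.11 FPKM and in heated WT flowers 27.6 ± 2.61 FPKM (SD, n = 3 each), so that the mutant had 23.3% of the WT level. The log2 fold change was -2.13 (SE 0.34, adjusted p = 0.00311), and the call held in all 22 other settings and library sets. Even the highest mutant library, with 8.85 FPKM, was well below the lowest WT library, with 25.3 FPKM.

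Of the mitochondrial members, HSP23.5 averaged 67.2 ± 6.59 FPKM in heated mutant flowers and 127 ± 18.7 FPKM in heated WT flowers, 53.0% of WT. Its log2 fold change of -0.96 (SE 0.15, adjusted p = 0.00265) was also called in all 22 alternatives. HSP23.6 averaged 84.7 ± 20.7 FPKM in heated mutant flowers and 230.1 ± 40.7 FPKM in heated WT flowers, 36.8% of WT (log2 fold change -1.48, SE 0.33, adjusted p = 0.0166). This call depended on single libraries: without WT replicate 1 the adjusted p was 0.0667, without mutant replicate 2 it was 0.0515 and without mutant replicate 3 it was 0.0837. HSP26.5 averaged 7.99 ± 2.31 FPKM in heated mutant flowers and 23.8 ± 4.01 FPKM in heated WT flowers, 33.6% of WT. Its log2 fold change of -1.61 (SE 0.60, 95% interval -2.93 to -0.29, adjusted p = 0.125) did not pass in the fit over 12 libraries, and it passed with the heated libraries alone (adjusted p = 0.0105), with counts divided by 4 (0.0117) and with limma on log2(FPKM + 1) (0.00202).

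The chloroplast and endoplasmic reticulum members were nearest to WT. HSP21 averaged 7.30 ± 2.95 FPKM in heated mutant flowers and 12.2 ± 1.26 FPKM in heated WT flowers, 59.8% of WT. Its log2 fold change was -0.77 (SE 0.31, 95% interval -1.50 to -0.04, adjusted p = 0.189). Mutant replicate 2, at 10.6 FPKM, lay just under the lowest WT library, at 10.9 FPKM. Without that mutant replicate the change was -1.17 (adjusted p = 0.0445), and with limma on log2(FPKM + 1) the adjusted p was 0.0442. HSP22.0 averaged 372 ± 62.4 FPKM in heated mutant flowers and 544 ± 109.6 FPKM in heated WT flowers, 68.4% of WT (SD, n = 3 each). Its log2 fold change of -0.59 (SE 0.23, 95% interval -1.08 to -0.10, adjusted p = 0.133) did not pass in any of the 22 alternatives.

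The make-up of the summed transcripts differed between heated genotypes, a pattern chosen after its values were seen. HSP22.0 made up 67.3% to 68.6% of the members' summed FPKM in mutant libraries and 49.9% to 59.9% in WT libraries. HSP15.7 made up 0.795% to 1.64% in mutant libraries and 2.70% to 3.01% in WT libraries. Neither share overlapped between the genotypes, and with 3 libraries against 3 a two-sided exact permutation test cannot give a p below 0.10.

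**Figure D4:**
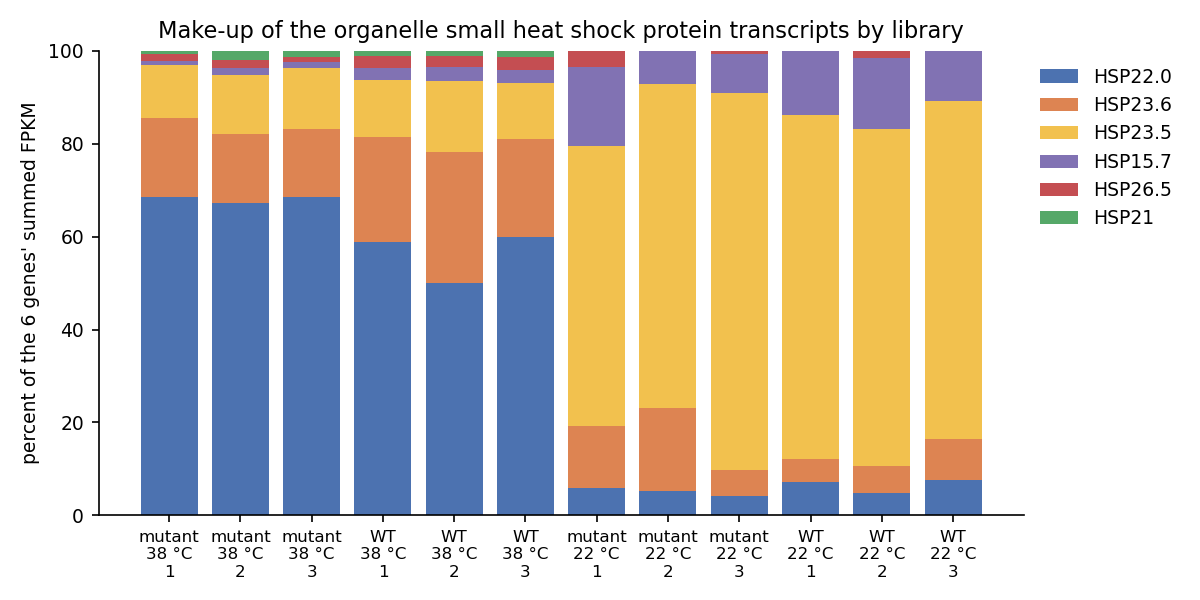
Share of each gene in the summed FPKM of the 6 genes (y axis, percent), by library. At 38 °C HSP22.0 takes 67.3% to 68.6% in the mutant and 49.9% to 59.9% in WT, while at 22 °C HSP23.5 takes the largest share in all 6 libraries.

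At 22 °C, none of the 6 members was called between the genotypes by edgeR, where 0.191% of genes tested were. None of the 5 members with counts had an unadjusted p below 0.05, and DESeq2 and limma called 0 as well. The log2 fold changes of mutant over WT were -0.64 for HSP22.0 (95% interval -1.35 to 0.06), -0.32 for HSP23.5 (-0.66 to 0.02), 0.62 for HSP23.6 (-0.37 to 1.60), 1.33 for HSP26.5 (-1.30 to 3.95) and -0.47 for HSP15.7 (-1.27 to 0.34), the last being -1.07 without mutant replicate 1. For HSP23.5 alone the groups did not overlap, with 7.56 FPKM in the highest mutant library and 7.71 FPKM in the lowest WT library, as was so in this direction for 4.63% of genes tested. HSP21 had no counts in either genotype.

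Whether heat acted differently in the 2 genotypes was tested as the heat response in the mutant minus that in WT. By edgeR 0 of the 6 members passed, where 1.59% of genes tested did, although 4 of the 5 with a value had an unadjusted p below 0.05. So had 3 of the 12 cytosolic and nuclear small heat shock proteins. The share of all genes tested with such an unadjusted p is not given. The differences on the log2 scale were -2.94 for HSP26.5 (SE 1.33, adjusted p = 0.306), -2.10 for HSP23.6 (SE 0.56, adjusted p = 0.0886), -1.66 for HSP15.7 (SE 0.49, adjusted p = 0.127), -0.64 for HSP23.5 (SE 0.21, adjusted p = 0.172) and 0.05 for HSP22.0 (SE 0.38, adjusted p = 0.968). The value of HSP26.5 rests on few counts at 22 °C: it was -7.48 without WT replicate 2 at 22 °C and -0.87 without mutant replicate 1 at 22 °C, the ends of its range over the alternatives. Without the same mutant replicate that of HSP15.7 was -1.07. DESeq2 called 3 of them, HSP23.5 (adjusted p = 0.0344), HSP23.6 (0.0281) and HSP15.7 (0.00809). Limma on log2(FPKM + 1) also called 3, HSP23.6 (0.0491), HSP26.5 (0.0361) and HSP15.7 (0.0375), and with log2(FPKM + 0.1) it called 0. HSP23.6 was called by edgeR when mutant replicate 3 at 22 °C was left out (adjusted p = 0.0268). The call on the difference of the heat responses thus varied with the test.

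Other genes of the heat response were set beside the members at 38 °C. Of the 12 cytosolic and nuclear small heat shock proteins, 5 were lower in the mutant and 7 did not pass, with a median log2 change of -1.06. HSP17.8 had -1.52 (adjusted p = 0.00147), HSP17.4B -1.48 (3.71e-04), HSP18.5 -1.32 (0.00979) and HSP17.6C -1.10 (0.0219). The members' median of -1.22 lay near that of the cytosolic list.

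Lists of large chaperones and other genes of the members' own compartments had medians nearer to 0 between the heated genotypes, a difference from the members that was not tested, and single genes overlapped the members' range. In chloroplasts 2 of 12 were lower in the mutant, the disaggregase CLPB3 (log2 fold change -0.61, adjusted p = 0.00253) and the HSP70 cpHsc70-1 (-0.29, adjusted p = 0.0333). In mitochondria 3 of 11 were lower, CLPB4 (-0.65, adjusted p = 0.00961), mtHsc70-2 (-0.43, adjusted p = 0.0106) and the chaperonin HSP60 (-0.31, adjusted p = 0.0285). In the endoplasmic reticulum 1 of 14 was lower, ERDJ3A, a J-domain partner of HSP70 in that compartment (-1.25, adjusted p = 4.18e-04), a larger change than those of HSP23.5, HSP21 and HSP22.0. In peroxisomes 2 of 10 were lower, the import receptors PEX7 (-0.52, adjusted p = 0.0136) and PEX5 (-0.33, adjusted p = 0.0338). The 4 lists had medians of -0.25, -0.13, 0.10 and -0.12 in that order, and none of their genes was higher in the mutant past the threshold.

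Of the 16 heat regulators, 6 were lower and 2 were higher in the mutant at 38 °C, with a median log2 change of -0.72. HSFA2, a heat-induced activator of small heat shock protein genes, averaged 13.9 ± 2.27 FPKM in mutant flowers and 59.2 ± 14.4 FPKM in WT flowers (SD, n = 3 each), a log2 fold change of -2.13 (adjusted p = 2.68e-04). DREB2A, a transcription factor of the drought and heat responses, had -2.17 (adjusted p = 3.33e-04). The class B heat shock factors HSFB2A and HSFB2B, which lack the activation motif of class A factors, had -2.06 (adjusted p = 1.16e-04) and -2.54 (adjusted p = 5.47e-06). Named after their values were seen, MBF1C, a transcriptional coactivator of the heat response, had -3.03 (adjusted p = 3.40e-04), and the 2 regulators that were higher were HSFA1E (0.47, adjusted p = 0.0439) and HSFA3 (0.53, adjusted p = 0.0241).

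**Figure D5:**
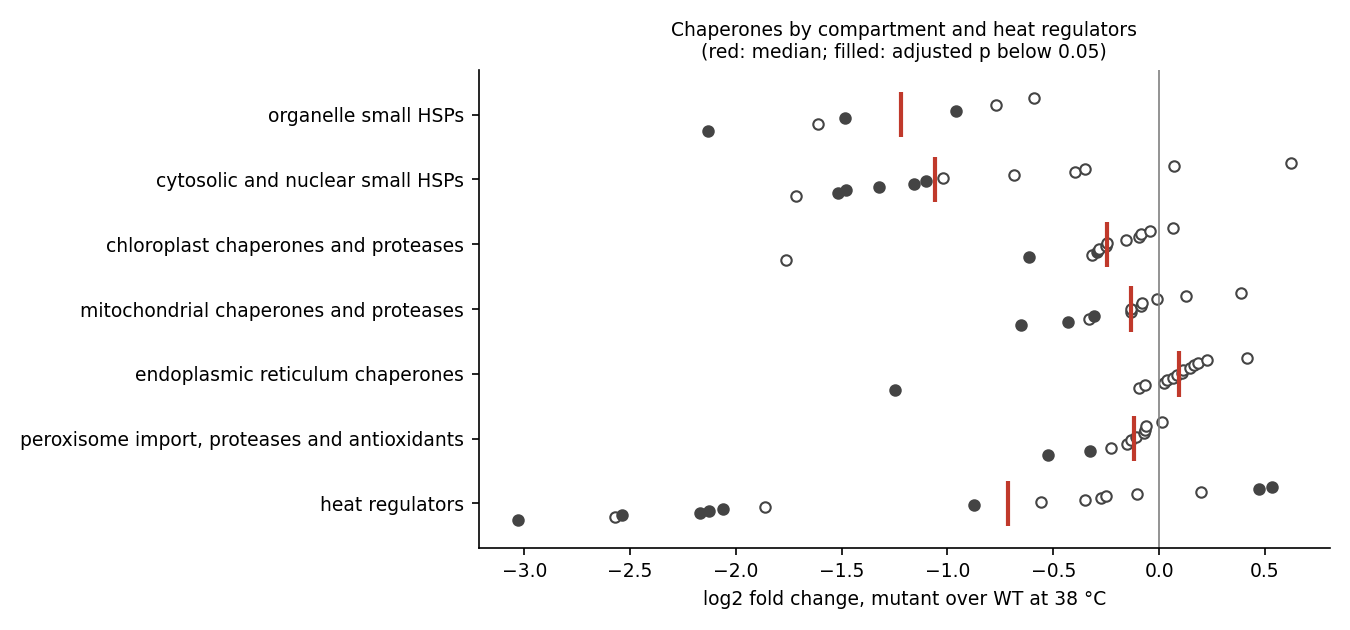
Log2 fold change of mutant over WT at 38 °C (x axis). Shown are the members, other small heat shock proteins, large chaperones and other genes by compartment, and heat regulators. Each point is a gene, filled where the adjusted p was below 0.05 by edgeR, and red bars are medians. They lie at -1.22 for the members and -1.06 for cytosolic and nuclear small heat shock proteins. For the lists of chaperones and other genes by compartment they lie between -0.25 and 0.10.

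Genes with the profile most like the members' mean over the 12 libraries were sought by the mean absolute difference of log2(FPKM + 1) values centred on each gene's own mean. The nearest was AT1G72660, at 0.19, a gene that the deposited table describes as a P-loop nucleoside triphosphate hydrolase. It averaged 45.1 ± 6.65 FPKM in the mutant and 74.0 ± 8.23 FPKM in WT at 38 °C, and 1.42 ± 0.0441 FPKM in the mutant and 1.41 ± 0.168 FPKM in WT at 22 °C. It was followed by ATMG00630, a gene of the mitochondrial genome, at 0.28, by APX2, a cytosolic ascorbate peroxidase, at 0.30, by ATMG00170, also mitochondrial, at 0.35 and by HSP70 (AT3G12580), a cytosolic chaperone, at 0.41. ATMG00630 averaged 23.4 ± 1.69 FPKM in the mutant and 85.8 ± 21.6 FPKM in WT at 38 °C, and 1.77 ± 1.03 FPKM in the mutant and 1.25 ± 0.267 FPKM in WT at 22 °C.

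The members had different nearest genes when taken one by one. ROF2, a peptidyl-prolyl isomerase of the FKBP type, was nearest to both HSP23.5, at 0.13, and HSP21, at 0.19. In WT, ROF2 averaged 203 FPKM at 38 °C and 15.0 FPKM at 22 °C, and HSP21 averaged 12.2 FPKM at 38 °C and 0 at 22 °C. The 1 added before the logarithm shrinks the change of genes near 0, so nearness to HSP21 does not mean a like fold change. APX2 was nearest to HSP26.5, at 0.12, and had 8.75 ± 1.66 FPKM in the mutant and 25.5 ± 3.83 FPKM in WT at 38 °C. HSP17.4 was nearest to HSP23.6, at 0.30, and HSP17.6B to HSP22.0, at 0.54. The gene nearest to HSP15.7, at 0.22, was AT2G07698, a subunit of the mitochondrial ATP synthase encoded on chromosome 2. Its mRNA shares an unbroken stretch of 1608 of its 2444 bases with the mitochondrial genome, so reads from that stretch cannot be told apart from those of the mitochondrial copy.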

How the data were processed

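The members and the comparison lists were chosen with earlier results of these data known. Messenger RNA of 12 flower libraries was measured by paired-end sequencing of polyadenylated RNA, with 3 libraries in each of 4 groups. Per the submitters' processing notes, StringTie 1.3.4d, HISAT2 2.0.4, cutadapt 1.9 and the TAIR10 build were used, in roles that are not stated. The authors deposited an estimated count per gene and library, in whole numbers not scaled to depth, by a step not stated in the labels. The authors also deposited FPKM values, scaled to transcript length and library depth. Of counts up to 20, 47.2% are multiples of 4, so the fragments behind a count are not known and no counting interval was drawn. The floor for genes at 0 was 12 counts per library, which stands for 3 fragments if each gave 4, and allows for counting error alone. Totals were 44983198 to 63088433 counts.

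The counts were modelled with edgeR 4.0.16 under R 4.3.3 (filterByExpr with a minimum count of 10, trimmed mean of M-values, quasi-likelihood test, a mean per group over 12 libraries, 8 residual degrees of freedom). The filter kept 23585 genes and removed 4130. Tests were two-sided, p-values were adjusted by Benjamini-Hochberg over all genes tested in each of 5 comparisons, and the threshold was 0.05. Alternatives used DESeq2 1.42.0, limma 3.58.1 on log2(FPKM + 1) and log2(FPKM + 0.1), other scalings and filters, counts divided by 4, the compared groups alone, a replicate block and each library left out. Named were the members, XBAT31, up to 4 genes per list with the smallest p and the nearest genes by profile. Other names are marked in the text.

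Upstream sequences and exon counts came from RefSeq TAIR10.1 with its own annotation, and gene positions from the deposited table. Of 26110 genes in both annotations, 26109 overlap on the same chromosome and 4614 have identical ends, so annotated starts differ. Coding sequences were aligned with Biopython 1.88, and shared mRNA stretches of at least 20 bases were sought.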

Additional observations from a re-analysis of the deposited data

Results flagged for a closer look

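None of the 6 organelle genes met a rule for a closer look, and 6 genes of the comparison lists did, each because its heat response differed between the genotypes by the test of that difference in edgeR (log2 heat response in the mutant minus that in WT). The value was -1.40 for the small heat shock protein HSP17.4B (adjusted p = 0.0175) and -1.14 for ERDJ3A of the endoplasmic reticulum (adjusted p = 0.0231). Among the regulators it was -2.16 for HSFB2A (adjusted p = 0.00430), -2.38 for HSFB2B (adjusted p = 3.12e-04), -2.17 for DREB2A (adjusted p = 0.0115) and -2.06 for MBF1C (adjusted p = 0.0443). HSFB2B had 5.21 ± 0.467 FPKM in the mutant and 29.4 ± 3.06 FPKM in WT at 38 °C, and 8.12 ± 0.690 FPKM in the mutant and 8.89 ± 1.48 FPKM in WT at 22 °C (SD, n = 3 each). The number of such genes varied strongly with the libraries in the fit, as given with the dependence on the processing.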

How the results depend on the processing

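Of 610 member values recomputed under alternatives, 586 kept their direction and call, 12 gained a call, 4 lost one (all for HSP23.6 at 38 °C, one of them with limma on log2(FPKM + 0.1), adjusted p = 0.0534) and 8 changed sign, all without passing. The difference of the heat responses of HSP22.0 was -0.32 with limma on log2(FPKM + 1), -0.0596 with log2(FPKM + 0.1), -0.18 without the 3 libraries that lay apart (chosen after seeing the data) and -0.30 to 0.30 with a library left out, being -0.16 without the third unheated mutant replicate, -0.07 without the first heated mutant replicate, -0.07 without the second heated WT replicate and -0.30 without the third unheated WT replicate. The genotype change of HSP26.5 at 22 °C was -0.74 to 5.87 with a library left out, -0.74 being without mutant replicate 1. Members lower at 38 °C numbered 3, 5 with limma on log2(FPKM + 1) and 2 to 3 with a library left out. Members with a different heat response numbered 0, 3 with DESeq2 or limma on log2(FPKM + 1) and 0 to 1 with a library left out. Over all genes, heat in the mutant gave 5875 calls and 3721 with the compared groups alone. Genotype at 38 °C gave 2269, 4028 with DESeq2 and 1016 to 2713 with a library left out, 1016 being without WT replicate 1. Genotype at 22 °C gave 45, 247 with DESeq2 and 25 to 52 with a library left out. The difference of the heat responses gave 374, 1820 with DESeq2, 249 with reference gene scaling, 185 with limma on log2(FPKM + 0.1), 128 with the replicate block, 24 without the 3 libraries and 60 to 499 with a library left out. The causes were not tested. No pairing of libraries by replicate number was seen. The deviations of same-numbered libraries from their group means correlated at -0.48 to 0.38, with 4 of 18 pairs over 0.1. Those of libraries with other numbers correlated at -0.34 to 0.41, with 13 of 36 pairs over 0.1. The replicate block changed no member's call. Scaling on reference genes moved the median heat change of all genes by 0.16 in the mutant and 0.13 in WT. Depth limits the size of fold changes against 22 °C levels near 0, for HSP21 and HSP26.5.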
